A study of Arabidopsis thaliana with 4 samples.

Results

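The genes described are 10 of the enzymes that make jasmonate in Arabidopsis thaliana, 10 of 24904 loci in the deposited count table. They were taken by locus, as the enzymes of the named steps: the lipoxygenases LOX2 (AT3G45140), LOX3 (AT1G17420), LOX4 (AT1G72520) and LOX6 (AT1G67560), the allene oxide synthase AOS (AT5G42650), the allene oxide cyclases AOC1 (AT3G25760), AOC2 (AT3G25770), AOC3 (AT3G25780) and AOC4 (AT1G13280), and the reductase OPR3 (AT2G06050). All 10 loci carry these symbols in the reference annotation and all 10 passed the filter on low counts. Poly(A) RNA was sequenced from whole leaf (2 libraries) and from leaf protoplasts (2 libraries) of wild-type Col-0 plants, 6 weeks old, grown in 8 h light and 16 h dark. Protoplasts are cells freed of their walls. Here they came from leaves stripped of the lower epidermis with tape, cut, and shaken for 2 h in 1% cellulase and 0.3% macerozyme with 0.6 M mannitol, then filtered and washed. The labels give a single protocol for all samples and call the whole-leaf RNA that of leaves that were not protoplasted. They do not say whether those leaves had been peeled or cut, nor when leaf and protoplasts were collected, so peeling, cutting, digestion, osmoticum and time cannot be told apart in the comparison. The labels call the libraries of a group biological replicates without naming plants or days, and the p-values below therefore reflect how far the libraries of a group lie apart, which could be technical variation alone. The libraries held 42121436 and 43685947 counts for leaf and 48503141 and 39958035 for protoplasts.

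Jasmonate is the wound hormone of leaves. In the plastid, a 13-lipoxygenase (LOX2, LOX3, LOX4 or LOX6) adds oxygen to linolenic acid, AOS turns the product into an unstable allene oxide, and an allene oxide cyclase closes the ring to give OPDA. OPDA moves to the peroxisome, where OPR3 reduces it and rounds of beta-oxidation shorten its side chain to jasmonic acid. Several of these genes are known to be induced by the hormone they make.

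Of the 10 genes, 8 rose and 2 fell in protoplasts (edgeR quasi-likelihood test, adjusted p under 0.05), where 80.5% of the 20200 tested genes were called, 39.8% higher and 40.7% lower. For all 10, leaf and protoplast libraries lay apart without overlap, as for 43.9% of tested genes with protoplasts higher and 46.4% with protoplasts lower. Each of the steps catalysed by a lipoxygenase, AOS, a cyclase and OPR3 had at least 1 gene that rose. The members that fell were LOX6 and AOC4. Of the 8 that rose, 7 did so at least 16-fold, against 7.97% of tested genes, and AOC4 was at least 16-fold lower, against 5.02%. AOC4 passed 16-fold narrowly (log2 fold change -4.02) and stayed under it in 4 of 12 alternatives, at -3.98 with RLE factors and without leaf replicate 2, -3.998 with limma-voom and -3.93 without protoplast replicate 2. The median log2 fold change of the 10 was 6.83, beside -0.04 over all tested genes. Together the 10 genes took 0.0815% (95% exact binomial interval 0.0807% to 0.0824%) and 0.0863% (0.0855% to 0.0872%) of the counts in the leaf libraries and 2.21% (2.20% to 2.21%) and 2.05% (2.04% to 2.05%) in the protoplast libraries. These intervals cover counting error only.

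**Figure D1:**
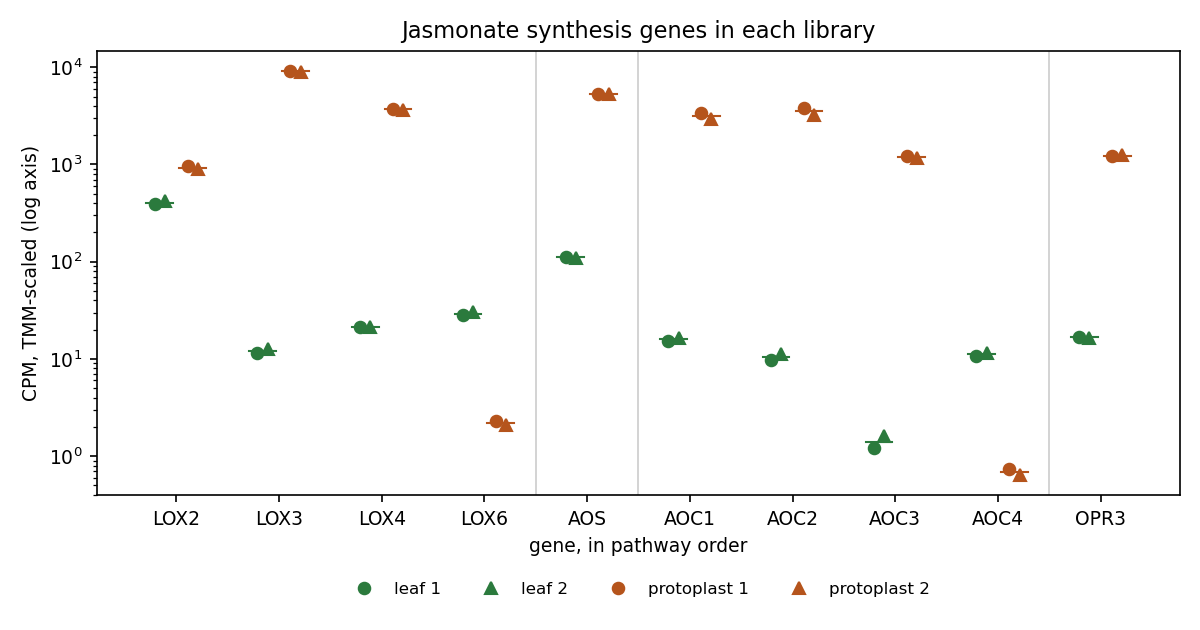
CPM (read counts relative to the TMM-scaled library size, log axis) of the 10 genes in pathway order, with circles for replicate 1, triangles for replicate 2 and a line at the mean of each group. The protoplast libraries lie above the leaf libraries for 8 genes and below them for LOX6 and AOC4.

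Levels are given in CPM, counts scaled to a common library size with TMM factors. LOX2, the most abundant lipoxygenase transcript of the leaf per length and a source of wound jasmonate there, had the smallest rise. It stood at 390.0 and 422.6 CPM in leaf and at 953.8 and 897.5 CPM in protoplasts. The groups did not overlap, and the protoplast mean was 2.28-fold the leaf mean (log2 fold change 1.19 ± 0.06 SE, adjusted p = 6.01e-10). The size of this rise depended on the scaling, with 0.86 for upper-quartile factors, 0.91 for scaling to 10 reference genes and 0.38 for library size only.

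LOX3 and LOX4, which act together in male fertility and are induced by wounding, changed far more. LOX3 went from 11.4 and 12.6 CPM in leaf to 9168 and 8962 CPM in protoplasts. This is a 754-fold difference of the means (log2 fold change 9.56 ± 0.08, adjusted p = 3.04e-16). LOX4 went from 21.4 and 21.0 CPM to 3747 and 3621 CPM, a 174-fold difference (7.44 ± 0.06, adjusted p = 3.04e-16). Both leaf libraries held more LOX4 counts than LOX3 counts and both protoplast libraries the reverse. The ratio of LOX3 to LOX4 counts, which no scaling of libraries can change, was 0.535 and 0.598 in leaf and 2.45 and 2.48 in protoplasts.

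LOX6 went the other way. Reporter studies place this lipoxygenase in cells next to the xylem, where it contributes to fast jasmonate production away from a wound. It had 28.0 and 30.2 CPM in leaf and 2.32 and 2.07 CPM in protoplasts, which rest on 1562 and 1741 reads in leaf against 86 and 62. The groups did not overlap, and the protoplast mean was 13.2-fold lower (log2 fold change -3.72 ± 0.10, adjusted p = 2.95e-12). In bulk RNA, fewer cells of a type and less RNA per cell cannot be told apart. All 7 xylem markers fell as well, 5 of them at least 16-fold. Over all tested genes 40.7% were called lower, and 5.02% at least 16-fold lower. The summed xylem level went from between 38.4 and 43.8 CPM in leaf to between 2.03 and 2.61 CPM in protoplasts. All 6 markers of companion cells and sieve elements fell too, 4 of them at least 16-fold. Their summed level went from between 659.1 and 691.6 CPM to between 17.5 and 17.6 CPM. None of these vascular markers was at 0 in both protoplast libraries, and their part in the fall of LOX6 was not tested. Tested markers of phloem parenchyma, epidermis, guard cells and bundle sheath fell too, as given below.

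AOS, the single allene oxide synthase gene of Arabidopsis and the entry to the jasmonate branch, stood at 111.5 and 110.0 CPM in leaf. In protoplasts it stood at 5364 and 5256 CPM, 47.9-fold higher (log2 fold change 5.58 ± 0.06, adjusted p = 4.08e-16). Replicates lay close together beside this difference.

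AOC1, AOC2 and AOC3 lie next to each other on chromosome 3 with no annotated gene between them, and AOC4 lies on chromosome 1. Because such copies can exchange reads, the sequences were compared before their counts. The coding sequences of AOC1 and AOC2 were 90.3% identical over 762 aligned bases, those of AOC1 and AOC3 84.0%, those of AOC2 and AOC3 83.2%, and those of AOC4 and its 3 relatives 75.6% to 80.2%. No window of 150 bases, the read length in the labels, was shared exactly between an annotated transcript of any of the 10 genes and a transcript of another gene. Of 50-base windows, 24 of 1142 in AOC1 were shared with AOC3 and 1 of 1251 in AOC2 was shared with AOC3, and 18 of 3291 in LOX6 were shared with UMAMIT28. The stretch below shows how the 4 cyclases differ. It is the first run of 90 coding bases that aligns without a gap and within 1 exon in all 4, 5′ to 3′ on the plus strand of RefSeq TAIR10.1, at chr3:9403998-9404087 for AOC1, chr3:9407001-9407090 for AOC2, chr3:9409394-9409483 for AOC3 and chr1:4547650-4547739 for AOC4. Capitals mark the 28 positions at which the 4 are not all alike.
AOC1: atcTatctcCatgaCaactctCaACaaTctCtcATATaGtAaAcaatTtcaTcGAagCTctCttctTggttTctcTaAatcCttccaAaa
AOC2: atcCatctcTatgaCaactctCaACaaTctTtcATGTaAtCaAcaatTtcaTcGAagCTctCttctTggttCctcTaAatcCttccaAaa
AOC3: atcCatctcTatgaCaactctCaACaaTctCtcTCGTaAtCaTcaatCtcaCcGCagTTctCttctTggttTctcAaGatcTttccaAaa
AOC4: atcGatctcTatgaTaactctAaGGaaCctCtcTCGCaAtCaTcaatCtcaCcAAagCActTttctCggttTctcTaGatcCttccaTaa
In this coding stretch AOC1 differed from AOC2 at 7 positions, AOC3 at 12 and AOC4 at 20. No source used here says how the authors' counting treated reads that fit several genes, so the division of counts among AOC1, AOC2 and AOC3 keeps some uncertainty.

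The log2 fold changes of the 3 tandem cyclases exceeded those of all other members except LOX3, which lay between AOC2 and AOC3. AOC1 had 15.2 and 16.6 CPM in leaf and 3417 and 2941 CPM in protoplasts, 200-fold higher (log2 fold change 7.64 ± 0.09, adjusted p = 1.20e-15). AOC2 had 9.80 and 11.2 CPM in leaf and 3821 and 3236 CPM in protoplasts, 337-fold higher (8.39 ± 0.10, adjusted p = 1.48e-15). For both, protoplast replicate 1 was above replicate 2. AOC3, with 67 and 92 counts in leaf, rose from 1.20 and 1.59 CPM to 1223 and 1155 CPM, the largest log2 fold change of the 10 genes (9.73 ± 0.10, adjusted p = 3.74e-16). With the counts of AOC1, AOC2 and AOC3 summed and tested as a single gene, the log2 fold change was 8.15 ± 0.09 (adjusted p = 8.84e-16). The mixture of the 3 shifted as well. The ratio of AOC1 to AOC2 counts was 1.55 and 1.48 in leaf and 0.894 and 0.909 in protoplasts, and that of AOC3 to AOC2 counts was 0.123 and 0.143 in leaf and 0.320 and 0.357 in protoplasts.

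AOC4, the cyclase gene outside the cluster, fell. It stood at 10.8 and 11.5 CPM in leaf (603 and 663 reads) and at 0.729 and 0.635 CPM in protoplasts (27 and 19 reads). Its protoplast mean was 16.4-fold lower (log2 fold change -4.02 ± 0.16, adjusted p = 8.46e-11). The ratios of AOC1 to AOC4 counts were 1.41 and 1.44 in leaf and 4686 and 4632 in protoplasts. Beside its fall stood those of both phloem parenchyma markers, SWEET11 and SWEET12, both at least 16-fold. Summed, they had 252.3 and 265.3 CPM in leaf and 12.9 and 12.1 CPM in protoplasts. All 6 tested epidermis markers fell, 5 of them at least 16-fold. Over all tested genes 40.7% were called lower, and 5.02% at least 16-fold lower. The epidermis list summed to 867.7 and 893.6 CPM in leaf and 9.61 and 9.39 CPM in protoplasts. Of the 7 listed epidermis markers, PDF1 was at 0 in both protoplast libraries. It had only 12 and 5 counts in leaf and was too low to be tested. Tested markers of xylem, companion cells and sieve elements, guard cells and bundle sheath fell too. A fall was therefore not particular to phloem parenchyma and epidermis. The part of these cell types in the fall of AOC4 was not tested.

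OPR3, the peroxisomal reductase of the pathway, rose from 16.8 and 16.5 CPM in leaf to 1225 and 1248 CPM in protoplasts. The difference of 74.3-fold (log2 fold change 6.21 ± 0.06, adjusted p = 3.14e-16) was large beside the spread, which was 0.160 CPM (SD, n = 2) in leaf and 16.3 CPM in protoplasts.

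Levels can be compared between genes once divided by transcript length (CPM per kilobase of merged exons). In leaf the order was led by LOX2 at 124.9 ± 7.1 CPM per kilobase (mean ± SD, n = 2) and AOS at 54.5 ± 0.5. AOC1 followed at 13.3 ± 0.8 and OPR3 at 9.76 ± 0.09. LOX6, AOC4 and AOC2, at 8.71 ± 0.45, 8.31 ± 0.35 and 8.06 ± 0.74, were neighbours that overlapped between libraries. Below them came LOX4 at 6.97 ± 0.09, LOX3 at 3.89 ± 0.26 and AOC3 at 0.842 ± 0.167, without overlap.

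In protoplasts the order was another. LOX3 led with 2937 ± 47 CPM per kilobase, but it overlapped AOC2 at 2714 ± 318. AOC2 overlapped AOC1 at 2669 ± 282, and AOC1 overlapped AOS at 2613 ± 38. Each of these neighbours in the order overlapped the next, while both LOX3 libraries lay above both libraries of AOC1 and of AOS. LOX4 lay below at 1209 ± 29. OPR3 at 724.7 ± 9.6 and AOC3 at 716.3 ± 28.8 overlapped, and LOX2 lay at 284.6 ± 12.2. LOX6 and AOC4 were last, at 0.658 ± 0.053 and 0.508 ± 0.050. Among the 24651 loci with an annotated length, LOX3 ranked 11075 in leaf and 24 in protoplasts, while LOX2 ranked 449 and 401.

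The lipoxygenase level is here the sum of LOX2, LOX3, LOX4 and LOX6, without LOX1 and LOX5. Summed over genes and per kilobase, it went from 139 and 150 in leaf to 4495 and 4369 in protoplasts. The cyclase level went from 29.1 and 32.0 to 6545 and 5655. The make-up of both sums changed. LOX2 made up 86.2% and 86.7% of the lipoxygenase level in leaf and 6.53% and 6.32% in protoplasts. LOX3 went from 2.67% and 2.72% to 66.1% and 66.5%, and LOX4 from 5.06% and 4.61% to 27.4% and 27.2%. LOX6 held 6.04% and 6.02% in leaf and 0.0155% and 0.0142% in protoplasts. Among the cyclases, AOC1 held a like share throughout, 43.9% and 43.5% in leaf and 43.8% and 43.7% in protoplasts. AOC2 rose from 25.9% and 26.8% to 44.9% and 44.0%, AOC3 went from 2.49% and 3.00% to 11.3% and 12.3%, and AOC4 went from 27.7% and 26.7% to 0.00830% and 0.00836%. The groups did not overlap for any of these shares except that of AOC1. A two-sided exact permutation test of 2 libraries against 2 gave p = 0.33 for each of the 7 non-overlapping shares, the smallest value it can give, and p = 1.0 for AOC1.

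**Figure D2:**
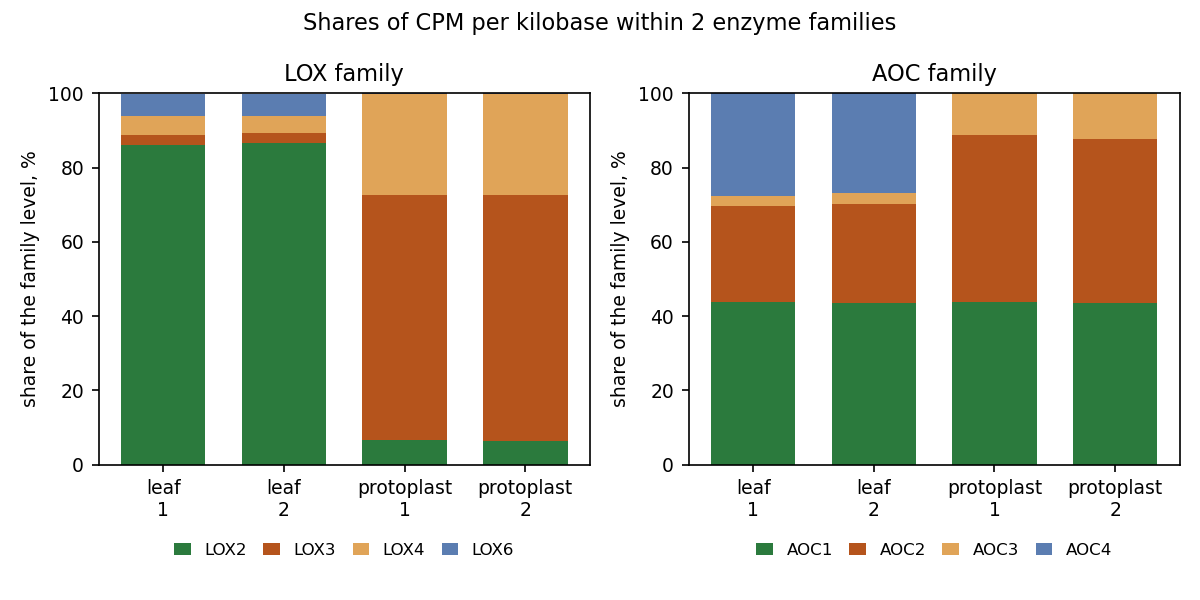
Share (%) of the summed CPM per kilobase held by each of LOX2, LOX3, LOX4 and LOX6 (left) and by each allene oxide cyclase gene (right), 1 stacked bar for each library. LOX2 fills about 86% of the leaf bars and about 6% of the protoplast bars, and AOC4 is visible in leaf and too small to see in protoplasts.

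The sequence before each gene's annotated start was searched for motifs of factors tied to jasmonate and stress. The window was the 250 bases before the start of the RefSeq TAIR10.1 gene, on both strands. The G-box CACGTG, a site of MYC2-type factors, was found before AOS and no other of the 10 genes, and in 6.49% of 27443 protein-coding promoters of that length. Its variant AACGTG was found before LOX4 and AOC1, and in 7.54% of promoters. The GCC-box GCCGCC of ERF factors was in none of the 10 and in 1.87% of promoters. The W-box of WRKY factors (TTGACC or TTGACT) was before LOX2, LOX3, LOX6, AOS and AOC3, which is 5 of 10 against 28.4% of promoters, and the rapid stress response element CGCGTT was before LOX4, against 2.59%. The genes with a match include LOX6, which fell, and AOC2 and OPR3, which rose, had none. Windows of 4 genes are printed to show the 3 members with a G-box or its variant and AOC4, a member that fell and had no match. They read 5′ to 3′ toward the gene, from chr5:17099596-17099845 (minus strand) for AOS, chr1:27308263-27308512 (plus) for LOX4, chr3:9403529-9403778 (plus) for AOC1 and chr1:4547138-4547387 (plus) for AOC4, with all motif matches in capitals.
AOS: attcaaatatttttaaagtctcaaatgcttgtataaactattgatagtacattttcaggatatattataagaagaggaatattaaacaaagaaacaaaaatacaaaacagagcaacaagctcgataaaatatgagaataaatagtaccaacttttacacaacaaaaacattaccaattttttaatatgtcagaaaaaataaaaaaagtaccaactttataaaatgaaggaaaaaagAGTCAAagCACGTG
LOX4: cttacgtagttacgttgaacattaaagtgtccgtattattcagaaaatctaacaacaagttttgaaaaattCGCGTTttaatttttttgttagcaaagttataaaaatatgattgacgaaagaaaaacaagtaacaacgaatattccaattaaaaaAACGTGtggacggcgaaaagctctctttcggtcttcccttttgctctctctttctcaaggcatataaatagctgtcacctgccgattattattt
AOC1: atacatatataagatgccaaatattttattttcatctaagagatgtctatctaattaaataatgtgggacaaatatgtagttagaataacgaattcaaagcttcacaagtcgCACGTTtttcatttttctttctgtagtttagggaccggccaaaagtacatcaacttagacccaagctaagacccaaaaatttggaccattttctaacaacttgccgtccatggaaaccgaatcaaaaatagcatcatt
AOC4: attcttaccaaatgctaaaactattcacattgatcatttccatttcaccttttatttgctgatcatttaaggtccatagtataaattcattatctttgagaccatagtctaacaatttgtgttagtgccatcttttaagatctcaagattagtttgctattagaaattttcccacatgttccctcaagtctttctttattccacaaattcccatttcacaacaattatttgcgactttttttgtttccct
In the AOS window the G-box starts 6 bases before the annotated start and the W-box match 14 bases before it. In that of LOX4 the G-box variant starts 94 bases and the stress element 179 bases before it, and in that of AOC1 the variant starts 138 bases before it. These matches describe letters and do not show that a factor binds.

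Genes that supply the precursor went in both directions. Of 13 listed genes, 12 had a row and 11 were tested, of which 7 rose and 2 fell. Of all tested genes, 39.8% were called higher and 40.7% lower. The share called in either direction is close to the 80.5% of all tested genes and is no result about these genes. Their median log2 fold change was 0.97, beside -0.04 over all tested genes (also with DAD1 and PLA-Ibeta2 at the bound and ratio given below). FAD7, the plastid desaturase that makes linolenic acid, rose from 265.1 and 280.8 CPM to 1388 and 1257 CPM, a log2 fold change of 2.28 ± 0.06. FAD3, its counterpart in the endoplasmic reticulum, had 82.6 and 85.7 CPM in leaf and 89.7 and 82.7 CPM in protoplasts, groups that overlap. FAD8, a further plastid desaturase, rose by 0.88 ± 0.07 on the log2 scale, but scaled by library size only it was not called (0.08, adjusted p = 0.317). The plastid lipase gene PLIP2 rose by 4.82 ± 0.08 on the log2 scale and PLIP3 by 2.70 ± 0.08, while PLIP1, with 16 to 18 counts in every library, did not pass the threshold.

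Lipases of the DAD1 family, which can release fatty acids from plastid lipids, differed strongly among themselves. The leaf libraries held 1768 and 1909 counts of PLA-Igamma3 (AT1G51440) and each protoplast library held 5, a log2 fold change of -7.73 ± 0.16. For PLA-Ibeta2 (AT4G16820), leaf gave 0 and 1 reads and protoplasts gave 240 and 203, a 751-fold ratio with an exact counting interval of 134 to 29710. It rests on a single leaf read, and the log2 fold change of 9.16 became 8.34 without leaf replicate 1 and 11.08 without leaf replicate 2. DAD1 itself, best known from anthers, was at 0 in leaf and had 15 and 10 reads in protoplasts, at least 6.99-fold higher when leaf is set to 3 counts per library. DGL, also at 0 in leaf, had 18 and 5 reads in protoplasts and was too low to be tested. PLA-Igamma2 rose by 0.97 ± 0.06 and PLA-Igamma1 fell by 0.49 ± 0.10 on the log2 scale.

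After OPDA, the changes were mostly small. Of 13 genes of OPDA export, import and beta-oxidation 9 rose and 2 fell, beside 39.8% of tested genes called higher and 40.7% lower. The share called in either direction was again close to the 80.5% of all tested genes. The median log2 fold change of the 13 was 0.54, and with library size only 4 rose and 8 fell. The rises of OPCL1 and ACX1 were far above the rest. OPCL1, a ligase that activates the OPR3 product with coenzyme A, went from 25.1 and 25.6 CPM to 520.7 and 520.8 CPM (log2 fold change 4.36 ± 0.05, adjusted p = 1.55e-15). ACX1, the main acyl-CoA oxidase of wound jasmonate, went from 87.1 and 85.2 CPM to 1218 and 1232 CPM (3.83 ± 0.05, adjusted p = 3.10e-15). ACX5, a close relative of ACX1, had a log2 fold change of 0.54 ± 0.08, which turned to -0.27 with library size only. JASSY, a channel of the plastid outer envelope that lets OPDA out, rose by 1.10 ± 0.06 and ACX2 by 1.46 ± 0.05. The importer CTS, with 0.68 ± 0.05, and ACX3, with 0.69 ± 0.06, turned to -0.13 and -0.12 with library size only. The thiolase genes KAT2 (0.51 ± 0.05) and KAT1 (0.38 ± 0.09) turned to -0.30 and -0.42 with that scaling. The call of KAT1 also ended with upper-quartile factors (0.05) and reference genes (0.10), and KAT5 fell by 0.66 ± 0.10. AIM1, a multifunctional protein of beta-oxidation, fell by 0.21 ± 0.06, a call that ended without leaf replicate 2 (adjusted p = 0.0537). ACX4 and MFP2 were not called, at 0.05 and -0.08.

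**Figure D3:**
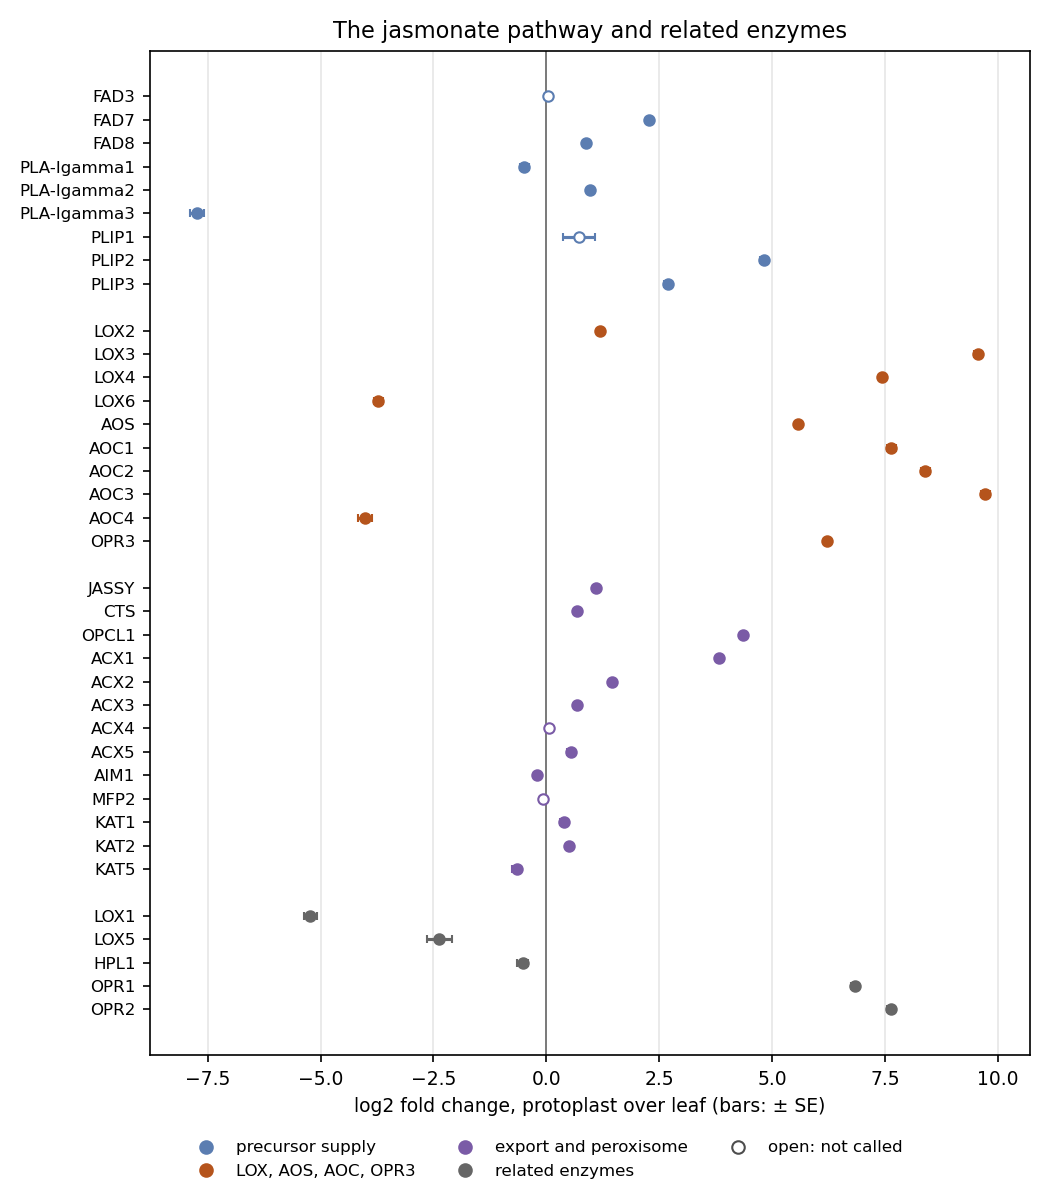
Log2 fold change (protoplast over leaf, bars ± SE) of the tested genes by pathway stage, open circles for genes that were not called, with DAD1 and PLA-Ibeta2 left out since leaf had at most 1 count. The largest rises are those of LOX3, AOC3 and AOC2, and the largest fall is that of PLA-Igamma3.

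Enzymes of the same families that lie outside the main route also differed. LOX1 and LOX5, which are 9-lipoxygenases and do not make jasmonate, fell. LOX1 went from 20.7 and 19.7 CPM to 0.594 and 0.468 CPM (log2 fold change -5.23 ± 0.14), and LOX5 from 2.12 and 2.55 CPM to 0.324 and 0.602 CPM (-2.37 ± 0.28). HPL1, the hydroperoxide lyase gene, which is known to be nonfunctional in Col-0, fell by 0.52 ± 0.12. OPR1 and OPR2, cytosolic relatives of OPR3, rose. OPR1 went from 20.9 and 21.9 CPM to 2574 and 2304 CPM (6.83 ± 0.08, adjusted p = 7.13e-16), and OPR2 from 1.18 and 1.09 CPM to 231.4 and 219.2 CPM (7.63 ± 0.08, adjusted p = 6.41e-16). The ratio of OPR3 to OPR1 counts was 0.801 and 0.754 in leaf and 0.476 and 0.541 in protoplasts.

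Mesophyll markers checked the labelled tissue. All 6 rose with TMM scaling, beside 39.8% of tested genes called higher. Their median log2 fold change was 0.70, but with library size only 1 rose and 3 fell (median -0.11). CA1 was the marker that rose under all 5 scalings. With TMM factors GLDP1, a subunit of the photorespiratory glycine decarboxylase, had 2057 and 2228 CPM in leaf and 4036 and 3818 CPM in protoplasts. All 6 tested guard cell markers and all 4 of bundle sheath fell, beside 40.7% of tested genes called lower. At least 16-fold lower were 5 guard cell and 2 bundle sheath markers, beside 5.02% of tested genes. The summed guard cell level went from 44.3 and 45.3 CPM to 2.54 and 2.44 CPM. That of bundle sheath went from 20.9 and 22.6 CPM to 6.54 and 6.32 CPM. The guard cell channel gene ALMT12 was at 0 in both protoplast libraries. The rise of LOX2 by 1.19 ± 0.06 was close to that of CA1 (1.11 ± 0.05), and the difference between them was not tested. The other mesophyll genes ran from 0.41 (LHCB3) to 0.87 (GLDP1). With library size only LOX2 was at 0.38, and the 6 mesophyll genes ran from -0.40 (LHCB3) to 0.30 (CA1). The part of cell composition in the rise of LOX2 was not tested.

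Genes with like CPM were looked for by the distance of log2 CPM over the 4 libraries. This description rests on 4 points in 2 groups. The CPM were not divided by length here, so the distance reflects level and gene length as well as change. Only genes with a symbol, outside the members and the listed pathway genes, were taken, so other genes may lie nearer. Nearest to AOS were HSPRO2 (distance 1.06), with 148.6 and 159.1 CPM in leaf and 8021 and 7812 CPM in protoplasts, GSTU5 (1.31) and PEN3 (1.32). Their log2 fold changes were 5.685, 4.355 and 4.574, beside 5.58 for AOS, so GSTU5 and PEN3 rose less than AOS. Nearest to AOC4 were NAKR1 (0.203), BCA3 (0.217) and TPPH (0.249), whose log2 fold changes were -4.14, -4.06 and -4.07.

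The 10 genes kept their direction and their call under the 5 scalings tried. Scaled by library size alone, the tested genes as a whole had a median log2 fold change that moved from -0.04 to -0.85, and the members moved with it, LOX3 from 9.56 to 8.75 and AOC4 from -4.02 to -4.82.

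**Figure D4:**
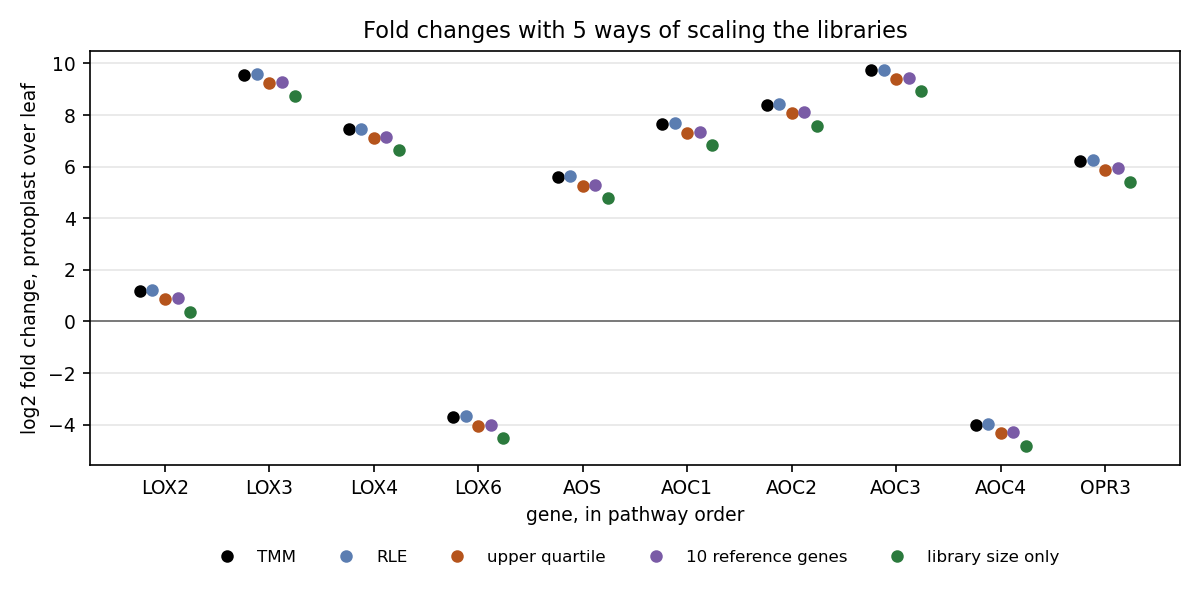
Log2 fold change (protoplast over leaf) of the 10 genes with TMM, RLE and upper-quartile factors, with scaling to 10 reference genes and with library size only. Every gene stays on its side of 0, and LOX2 comes nearest to it, at 0.38 with library size only.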

How the data were processed

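The deposited counts are whole-number read counts per gene locus, 1 column per library, without normalization by the authors. Per the submitters' processing notes, STAR and DESeq were used, with no version. No source used here names the genome build, the annotation, the counting program or whether strand was used. The authors' comparison table was not used. Protoplast was tested against leaf in edgeR 4.0.16 (R 4.3.3) by quasi-likelihood, in a model of group alone, after TMM scaling (factors 1.32 for both leaf libraries, 0.764 and 0.749 for protoplasts) and filterByExpr, which left 20200 of 24904 loci, and p-values were adjusted by the Benjamini-Hochberg method over these. The SE was obtained as the log2 fold change over the root of the F statistic. The script was tested on simulated data. CPM use TMM-scaled library sizes. A gene at 0 in a group was set to 3 counts per library for a lower bound.

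The members, gene lists and tests were chosen with earlier results of these data known. Named are all 10 members, the listed pathway genes, and, among other genes with a symbol, the 3 nearest to AOS and to AOC4 (prior count 2). Lengths, sequences and promoters come from RefSeq TAIR10.1, matched by locus tag for 24651 loci. The coordinates are those of that reference, and the counts carry none. No annotated gene overlaps a member. Alternatives were other scalings, DESeq2 1.42.0, limma 3.58.1 (voom), no filter, a replicate block and leaving out each library.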

Additional observations from a re-analysis of the deposited data

How the results depend on the processing

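All 10 members kept direction and call under 12 alternatives, the other scalings and tests, no filter, the replicate block and leaving out each library. LOX2 ranged from 0.38 to 1.24, LOX3 from 8.75 to 9.62, LOX6 from -4.52 to -3.65 and AOC4 from -4.82 to -3.93. Leaving out a library leaves its group with a lone sample, which is assumed to vary like the other group. The number of peroxisomal step genes called higher fell to 4 with library size only, and the number called lower was 8 with library size only, 4 with upper-quartile factors or reference genes, and 1 to 2 when a library was left out (1 without leaf replicate 2, which ended the call of AIM1). Of the 6 mesophyll markers, all higher with TMM factors, 5 were called higher with upper-quartile factors or reference genes, and 1 higher and 3 lower with library size only, settings added for them after seeing the data.

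With library size only the direction turned for KAT1 (-0.42), KAT2 (-0.30), ACX5 (-0.27), CTS (-0.13), ACX3 (-0.12) and the uncalled PLIP1 (-0.084). FAD3 and ACX4, not called with TMM factors, turned to -0.29 and -0.28 (upper-quartile factors), -0.25 and -0.23 (reference genes) and -0.77 and -0.76 (library size only), and ranged from -0.039 to 0.089 and from -0.019 to 0.096 when a protoplast library was left out. The cause was not tested beyond the scaling itself, which moved all genes. The share of calls that were higher in protoplasts was 49.4% (TMM), 51.2% (RLE), 54.9% (DESeq2), 37.4% (reference genes), 35.9% (upper quartile) and 23.5% (library size).

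Scaled by coding length, chosen after seeing the data, LOX2 held 87.0% of the lipoxygenase level in leaf and 6.94% in protoplasts, and AOC4 28.7% and 0.00864% of the cyclase level. With coding length the AOC1 share no longer overlapped between the groups, at 41.0% and 40.6% in leaf and 40.4% and 40.1% in protoplasts. The replicate numbers pair the libraries by name only (the correlation across genes of the replicate 1 minus 2 difference between groups was -0.08, Spearman's -0.15). A replicate block gave 15650 called genes against 16267, with 8 members higher and 2 lower, and crossed numbers, added after seeing the data, 16746. Depth limits DAD1, DGL and PLIP1, which had at most 18 counts in any library.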
